A study of Homo sapiens with 16 samples.

Results

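MicroRNA host genes are long transcripts that carry 1 or more microRNA hairpins in their exons or introns. They were taken here as all genes of the deposited RNA-Seq count table whose GENCODE symbol has the form MIR, a number or name, and HG (host gene), such as *MIR31HG*. The rule found 68 members among 34228 genes, and all 68 enclose at least 1 annotated microRNA on their own strand, 98 hairpins in total. The libraries come from 2 human melanoma cell lines with acquired resistance to BRAF inhibitors (BRAFi-R), 451Lu-R and 1205Lu-R. The study describes 451Lu-R as having high MITF and low AXL, and 1205Lu-R as having the reverse. Cells of each line received 2.5 μM corin, a single molecule that inhibits both LSD1 and class I histone deacetylases of the CoREST repressor complex, or the vehicle DMSO, for 24 h. All groups therefore share the resistance derived by long culture with the BRAF inhibitor PLX4032, and each line stands for 1 tumor background. Each of the 4 groups had 2 libraries, and the labels do not say that these were separate cultures. The p-values thus measure the spread between these libraries, which may be technical.

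A microRNA is cut from its host transcript by Drosha and DGCR8 in the nucleus, exported by exportin 5, cut again by Dicer, and loaded on an Argonaute protein. Bases 2 to 8 of the mature strand, the seed, pair with target mRNAs, which are then repressed. Host genes can be regulated by chromatin like protein coding genes, and several of the hosts below are known from cancer cells, including those of the let-7 family, miR-31, miR-34a, miR-146a, and miR-221/222. The libraries were made from polyadenylated RNA, so the values below are levels of host transcripts. Mature microRNAs were not measured.

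The sequences below are those of the hosts that were called with corin in both lines, or by at least 4-fold in 1 line. They are the mature products that these transcripts can yield, from RefSeq on GRCh38.p14, written 5′ to 3′ with the seed in capitals. *MIR9-1HG* and *MIR9-3HG* lie on different chromosomes (1 and 15) and carry hairpins with the same mature strands:
miR-9-5p: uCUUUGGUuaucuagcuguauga
miR-9-3p: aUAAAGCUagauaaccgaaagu
*MIR3142HG* on chromosome 5 carries the miR-146a hairpin in an exon (chr5:160485352-160485450, plus strand) and miR-3142 in an intron:
miR-146a-5p: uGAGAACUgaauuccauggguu
miR-146a-3p: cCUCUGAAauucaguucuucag
miR-3142: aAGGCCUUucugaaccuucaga
The remaining hosts of this kind carry 1 hairpin each. Those of *MIR31HG* (chr9:21512115-21512185, minus strand), *MIR3681HG* (chr2:12199130-12199201, plus strand), *MIR1915HG* (chr10:21496562-21496641, minus strand), and *MIR210HG* (chr11:568089-568198, minus strand) are intronic, and that of *MIR663AHG* (chr20:26208186-26208278, minus strand) spans an exon boundary:
miR-31-5p: aGGCAAGAugcuggcauagcu
miR-3681-5p: uAGUGGAUgaugcacucugugc
miR-3681-3p: aCACAGUGcuucauccacuacu
miR-1915-5p: aCCUUGCCuugcugcccgggcc
miR-1915-3p: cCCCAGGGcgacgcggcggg
miR-210-5p: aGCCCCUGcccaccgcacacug
miR-210-3p: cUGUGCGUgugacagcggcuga
miR-663a: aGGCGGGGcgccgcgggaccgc
*MIR3667HG* also met the rule. Among the products of the 25 members with enough counts to be named, 3 mature strands from 3 different hosts share the let-7 seed GAGGUAG, and they are shown for that shared seed. They are let-7a-5p of *MIR100HG* and *MIRLET7BHG*, let-7b-5p of *MIRLET7BHG*, and miR-4458 of *MIR4458HG*:
let-7a-5p: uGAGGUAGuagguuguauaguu
let-7b-5p: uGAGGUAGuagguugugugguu
miR-4458: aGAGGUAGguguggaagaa

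Library totals ran from 9516687 to 11797788 estimated counts, and 3 counts in a library correspond to 0.254 to 0.315 counts per 1000000 of the library total (CPM). The labels were checked against lineage markers. The 6 melanocytic markers summed to 13230 to 13310 CPM in 451Lu-R with DMSO and to 7.25 to 8.38 CPM in 1205Lu-R with DMSO, where *SOX10* and *TYR* were at 0 in every library. The 4 dedifferentiation markers, *AXL* among them, summed to 8.02 to 8.07 CPM and to 1251 to 1265 CPM, respectively. With corin the melanocytic sum was 11400 to 11440 CPM in 451Lu-R and 16.7 to 18.8 CPM in 1205Lu-R. Most of the 451Lu-R sum was *PMEL* (8425 and 8448 CPM with DMSO, 7190 and 7262 CPM with corin). Its members did not move alike in 451Lu-R. *DCT* rose from 1666 and 1669 to 2692 and 2658 CPM, and the other markers fell, *MITF* from 782 and 804 to 287 and 286 CPM. The dedifferentiation sum was 371 to 379 CPM with corin in 451Lu-R, most of it *NGFR* (355 and 348 CPM), and 803 to 816 CPM in 1205Lu-R. In 1205Lu-R *AXL* fell from 948 and 976 to 480 and 471 CPM, and *WNT5A* from 200 and 188 to 37.2 and 37.9 CPM. *NGFR* rose there from 5.60 and 6.12 to 206 and 199 CPM, and *EGFR* overlapped between the groups. Markers of blood, endothelium, keratinocytes, and epithelium (10 of 12 in the table) summed in 451Lu-R to 3.85 to 5.35 CPM with DMSO and 19.2 to 20.4 CPM with corin. The highest there with corin were *VWF* (8.14 and 8.50 CPM), *KRT14* (4.75 and 4.40 CPM), and *LYZ* (4.96 and 3.63 CPM). The 1205Lu-R sums were 11.5 CPM in both DMSO libraries and 25.2 to 28.9 CPM with corin. Most of the DMSO sum was *PECAM1* (9.08 and 9.81 CPM), which stood at 8.62 and 6.06 CPM with corin. *VWF* went from 1.63 and 1.04 CPM with DMSO to 19 and 17.8 CPM with corin. *KRT5* was at 0 in every library of this line. The part of these markers in the results on host genes was not tested. In RNA from whole cultures, fewer expressing cells and less RNA per cell cannot be told apart.

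Host genes were a small and uneven part of the RNA. Summed over the 68 members, the level was 135 and 125 CPM in 451Lu-R with DMSO and 120 CPM in both corin libraries of that line. In 1205Lu-R it was 239 and 241 CPM in the DMSO libraries against 314 and 310 CPM in the corin libraries, so the sum was higher in every 1205Lu-R library than in any 451Lu-R library. Of the 68 members, 25 reached 10 counts in both libraries of at least 1 group, and only these are named below unless stated otherwise. Of the other 43, 3 were at 0 in every library, 17 never passed 3 counts, and 23 passed 3 counts somewhere, with a highest value of 17.1 counts. Only 9 members had at least 10 counts in both libraries of all 4 groups. The number with 10 counts in both libraries was 13 in 451Lu-R with DMSO, 20 with corin, 17 in 1205Lu-R with DMSO, and 20 with corin.

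*MIR4435-2HG*, *MIR663AHG*, and *MIR100HG* had the most counts over all libraries and together took 52.7% to 67.6% of the members' counts in each. In 451Lu-R *MIR100HG* had little part in this, with 8.97 to 13.9 counts per library. *MIR4435-2HG*, a long noncoding RNA with copies of much of its sequence elsewhere, had 523 and 426 counts in the DMSO libraries of 451Lu-R against 514 and 471 in its corin libraries. In 1205Lu-R it had 1079 and 983 counts in the DMSO libraries against 967 and 1107 in the corin libraries. The 1205Lu-R libraries were thus higher than all 451Lu-R libraries, with 92.5 to 102 CPM against 43.6 to 48 CPM. Per kilobase of exon, which is the scale for comparing genes, *MIR22HG* led in 1205Lu-R with DMSO (4.23 CPM per kb), followed by *MIRLET7BHG* (3.07), *MIR4435-2HG* (2.77), *MIR663AHG* (2.49), and *MIR1915HG* (2.29). In 451Lu-R with DMSO *MIR3142HG* led (4.49 CPM per kb), followed by *MIR663AHG* (3.33), *MIRLET7BHG* (1.52), *MIR4435-2HG* (1.34), and *MIR3681HG* (1.24). The plot of levels shows the 25 named members in all libraries.

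**Figure D1:**
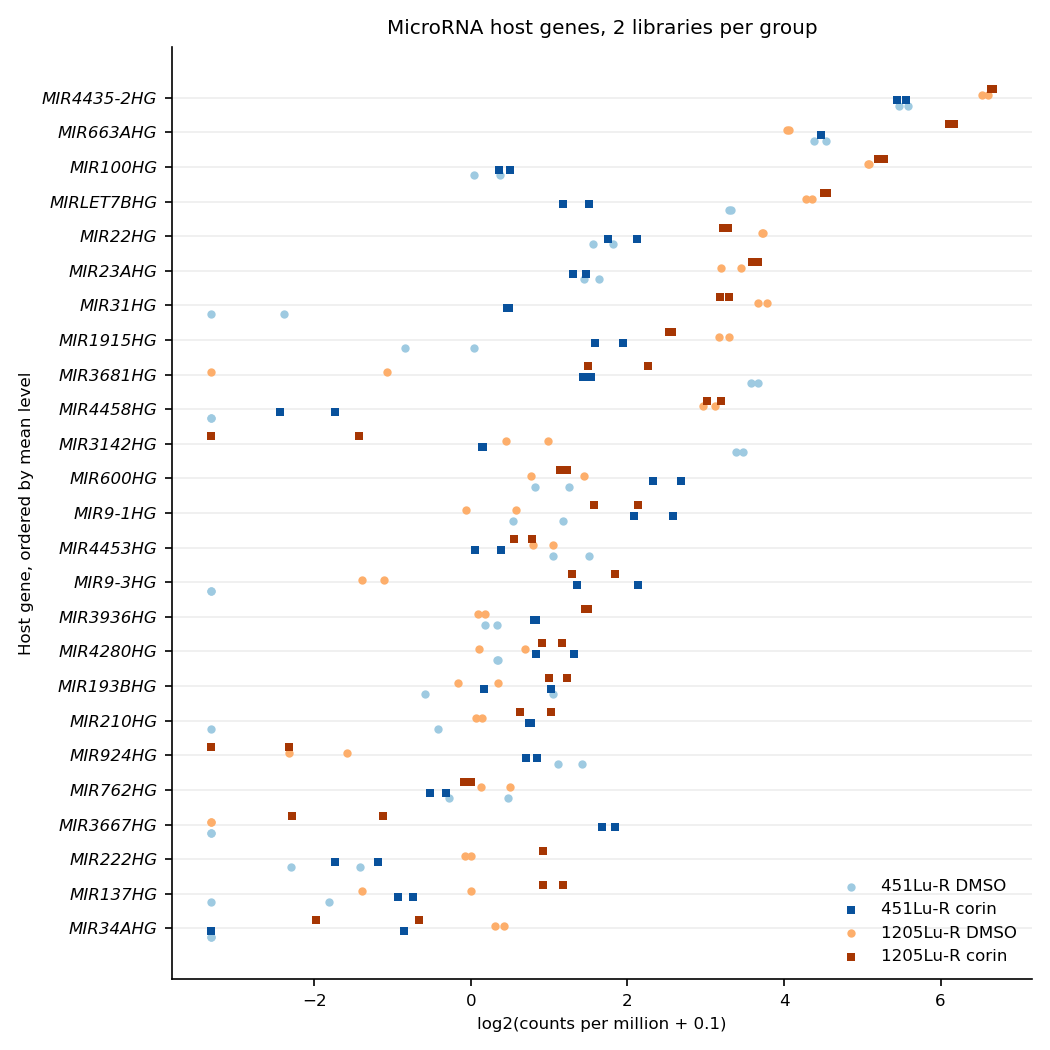
Level of the 25 named microRNA host genes in each library, as log2 of CPM plus 0.1 (x axis), with genes ordered by mean level (y axis). Circles are DMSO libraries, squares are corin libraries, blue is 451Lu-R, and orange to brown is 1205Lu-R. *MIR100HG*, *MIR31HG*, and *MIR4458HG* separate the lines, and *MIR3142HG* is lower with corin in both lines.

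Some members share sequence with other genes, which limits how well reads can be assigned to them. Of the distinct 31-base words in GENCODE 44 transcripts of *MIR4435-2HG*, 36.5% also occur in transcripts of other genes, 31.9% in its paralog *CYTOR*. The shared percentage was 26.4 for *MIR762HG*, 23.9 for *MIR23AHG* (11.8 with *ZSWIM4* on the opposite strand), 23.4 for *MIR663AHG*, 22.7 for *MIR4280HG*, 19.6 for *MIR3936HG*, 16.2 for *MIR193BHG*, and 14.1 for *MIR31HG*. The remaining 17 named members shared less than 10%, and *MIR222HG* shared none. Only GENCODE 44 transcripts were searched, so sequence shared with RNA outside that set was not counted. *MIR600HG* and *MIR137HG* overlap exons of *STRBP* and *DPYD* on the same strand. The sources used here do not say whether counting used the strand, so reads of overlapping genes on opposite strands may not have been told apart.

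Corin was first compared with DMSO in 451Lu-R. Of the 68 members, 20 passed the filter on low counts and were tested, and 12 were called at an adjusted p under 0.05 (edgeR quasi-likelihood test, Benjamini-Hochberg over all genes), 8 higher and 4 lower with corin. That is 60% of the members tested, where 79.9% of all 14530 genes tested were called (41.3% higher and 38.6% lower). Tested members had a median of 1.99 CPM, against 23 CPM for all genes tested. Their median log2 fold change was 0.39, against 0.03 over all genes tested. At 4-fold or more with an adjusted p under 0.001, 6 members were called, 4 higher and 2 lower, beside 15.1% of all genes (12.4% higher and 2.72% lower).

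Several hosts that were at or near 0 with DMSO in 451Lu-R were detected with corin. *MIR9-3HG* had 0 counts in both DMSO libraries and 29 and 43 counts with corin. With DMSO at the limit that 0 counts allow (3 counts per library), its level with corin was at least 11.5-fold higher (adjusted p = 1.41e-07). *MIR3667HG*, host of miR-3667, likewise had 0 counts in the DMSO libraries against 41 and 31 in the corin libraries, a level at least 11.2-fold above the DMSO limit (adjusted p = 3.68e-08). *MIR31HG*, a noncoding RNA at the *CDKN2A* and interferon gene region of chromosome 9, had 1 and 0 counts in the DMSO libraries against 15 and 13 in the corin libraries. The ratio of its summed counts was 26.4 with a 95% exact binomial interval of 4.37 to 1080, which covers counting error only (adjusted p = 3.98e-05). For these 3 hosts no corin library overlapped a DMSO library. Here and below, hosts described this way were chosen by their calls. The share of all genes without overlap was not computed, so the lack of overlap adds no support to a call. These 3 hosts passed the filter on low counts only through their corin libraries, so only a rise could be called. They are part of the 8 called higher and of the median of 0.39. Likewise, hosts at or near 0 in 1 group of a comparison below entered it only through the other group.

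Among hosts already measured with DMSO, *MIR1915HG* had 5 and 9 counts in the DMSO libraries against 44 and 29 in the corin libraries in 451Lu-R. Its log2 change was 2.37 ± 0.39 (SE; adjusted p = 1.55e-05). *MIR9-1HG* had 23.5 and 13.1 counts in the DMSO libraries against 69.4 and 41.6 in the corin libraries, or 1.59 ± 0.29 in log2 terms (adjusted p = 5.05e-05). Both hosts thus rose with no overlap between the groups. *MIR600HG*, whose exons overlap *STRBP*, rose from 25 and 16 counts to 74.7 and 49, or 1.60 ± 0.26 in log2 terms (adjusted p = 1.56e-05). *MIR210HG*, host of the hypoxia-induced miR-210, had 7.05 and 0 counts in the DMSO libraries against 18.6 and 16 in the corin libraries, a ratio of 4.72 with an interval of 2.06 to 12.6 (adjusted p = 0.00217). The smallest of the 8 increases was that of *MIR4280HG*, or 0.89 ± 0.37 in log2 terms (adjusted p = 0.0352). The call of *MIR210HG* was lost with DESeq2 (adjusted p = 0.209), and that of *MIR4280HG* when any 1 of the 4 libraries was left out (adjusted p from 0.0549 to 0.32).

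The 4 hosts that fell in 451Lu-R included the host of miR-146a, a microRNA induced by NF-κB. *MIR3142HG* had 120 and 100 counts in the DMSO libraries against 12 and 10 in the corin libraries. It was the most abundant of the named members per kilobase in this line with DMSO, and its log2 change was -3.29 ± 0.24 (adjusted p = 1.28e-10). *MIR3681HG* went from 137 and 114 counts to 33 and 26, or -2.07 ± 0.18 in log2 terms (adjusted p = 2.59e-09). *MIRLET7BHG*, which encodes the tumor-suppressive let-7a-3 and let-7b in exons, went from 106 and 95.7 counts to 25.4 and 27.5, or -1.91 ± 0.20 in log2 terms (adjusted p = 4.81e-08). In each of these hosts every corin library was below every DMSO library. *MIR4453HG* had 30 and 19 counts in the DMSO libraries against 11 and 12 in the corin libraries, or -1.06 ± 0.37 in log2 terms (adjusted p = 0.0133). Its call was lost without 451Lu-R DMSO replicate 1 (adjusted p = 0.188), without 451Lu-R corin replicate 1 (0.145), and with DESeq2 (0.157).

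The other 8 members tested in 451Lu-R did not pass the threshold. They included the abundant hosts *MIR4435-2HG* (log2 fold change 0.07 ± 0.07, adjusted p = 0.367) and *MIR663AHG* (0.10 ± 0.09, adjusted p = 0.315). *MIR22HG* (0.38 ± 0.26) and *MIR23AHG* (-0.04 ± 0.28) overlapped between the groups. *MIR193BHG*, host of miR-193b and miR-365a, passed when 451Lu-R DMSO replicate 2 was left out (log2 fold change 1.52, adjusted p = 0.0416) and turned to -0.29 without replicate 1.

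In 1205Lu-R, 23 members were tested and 13 were called, 8 higher and 5 lower with corin. That is 56.5% of those tested, where 78.3% of all 14563 genes tested were called (40.4% higher and 37.8% lower). The median log2 fold change was 0.15 for the members and 0.03 for all genes tested, and the median levels were 1.95 and 21.6 CPM. At 4-fold or more with an adjusted p under 0.001, 4 members were called, 3 higher and 1 lower, beside 12.8% of all genes (11.3% higher and 1.43% lower). The plot of the corin response shows both lines side by side.

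**Figure D2:**
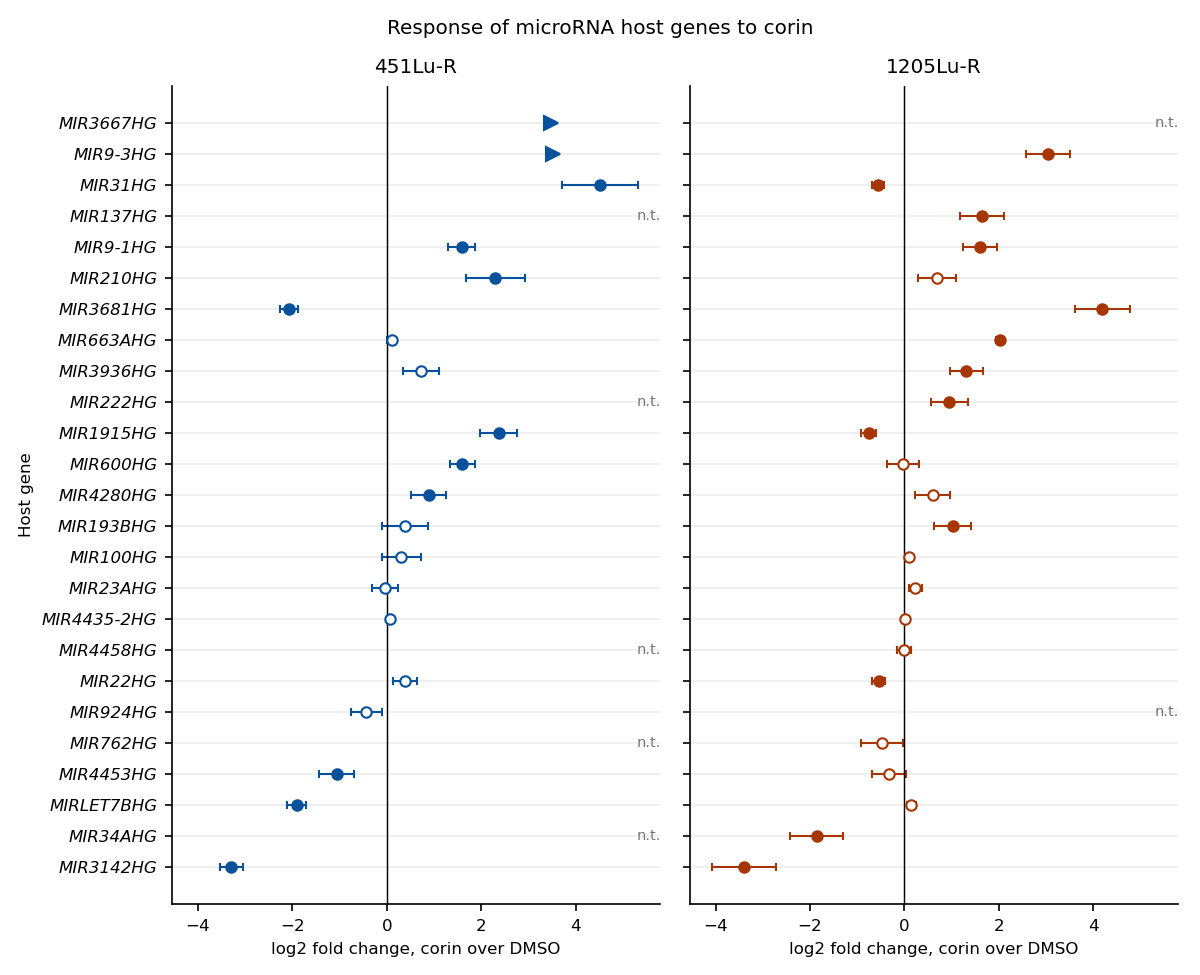
Log2 fold change of each named host gene with corin over DMSO (x axis) for 451Lu-R on the left and 1205Lu-R on the right. Points with bars are the fitted value ± SE, filled where called at an adjusted p under 0.05, triangles are lower bounds where both DMSO libraries had 0 counts, and n.t. marks genes that were not tested. *MIR3142HG* is low in both panels, and *MIR3681HG* is below 0 in 451Lu-R and above 0 in 1205Lu-R.

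The largest change in counts in 1205Lu-R was that of *MIR663AHG*, host of the GC-rich miR-663a. It had 181 and 176 counts in the DMSO libraries against 683 and 762 in the corin libraries, or 2.02 ± 0.07 in log2 terms (adjusted p = 2.17e-16). In 451Lu-R its 252 and 202 counts in the DMSO libraries stood against 261 and 221 in the corin libraries, so the groups overlapped there. Of its 31-base words, 23.4% occur in transcripts of other genes, and whether all these counts belong to this host was not tested. The table also holds a separate row for the miR-663a hairpin, which lies across an exon boundary of this host. That row had 6.0 and 5.98 counts in the DMSO libraries of 1205Lu-R against 42.1 and 45.5 in its corin libraries (2.85 ± 0.36 in log2 terms, adjusted p = 2.98e-07), and 12 and 11.5 against 5.90 and 9.99 in 451Lu-R (-0.50 ± 0.48, adjusted p = 0.345). A row in polyadenylated RNA does not measure the mature microRNA.

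*MIR3681HG* was near 0 in 1205Lu-R with DMSO, at 0 and 4 counts, and had 26 and 52 counts with corin. The ratio of summed counts was 20.5 with an interval of 7.69 to 77.1 (adjusted p = 1.16e-06). *MIR9-3HG* rose from 4 and 3 counts to 33 and 26, a ratio of 8.86 with an interval of 4.04 to 23 (adjusted p = 4.95e-06). *MIR9-1HG* rose from 15.4 and 9.11 counts to 40.9 and 31.9, or 1.60 ± 0.35 in log2 terms (adjusted p = 0.000302). In all of these the corin libraries were above the DMSO libraries.

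4 further hosts rose in 1205Lu-R from 13 counts or fewer. *MIR3936HG* had 10.6 and 11 counts in the DMSO libraries against 25.2 and 30.2 in the corin libraries (log2 fold change 1.31 ± 0.36, adjusted p = 0.00217). *MIR137HG*, host of miR-137, which is known to target *MITF*, had 10 and 3 counts and then 17 and 24 (1.64 ± 0.47, adjusted p = 0.00312). *MIR193BHG* (1.02 ± 0.39, adjusted p = 0.0206) and *MIR222HG*, host of miR-221 and miR-222 (0.95 ± 0.40, adjusted p = 0.035), had the smallest increases called. All 4 calls were lost with DESeq2 (adjusted p from 0.0513 to 0.233). *MIR222HG* also lost its call without any 1 of the 4 libraries (adjusted p from 0.131 to 0.18), *MIR193BHG* without 1205Lu-R DMSO replicate 1 or either corin replicate (0.0576 to 0.189), and *MIR137HG* without 1205Lu-R DMSO replicate 2 (0.0976) or corin replicate 2 (0.0522).

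5 hosts fell in 1205Lu-R. *MIR3142HG* had 14 and 20 counts in the DMSO libraries against 0 and 3 in the corin libraries. Its summed counts were 10.8-fold lower, with an interval of 3.39 to 54.9 (adjusted p = 0.000109). *MIR34AHG*, host of the p53 target miR-34a, had 12.6 and 13.1 counts in the DMSO libraries against 5.05 and 1.70 in the corin libraries, 3.53-fold lower with an interval of 1.49 to 9.64 (adjusted p = 0.00491). Its call was lost without 1205Lu-R corin replicate 2 (adjusted p = 0.169) and with DESeq2 (0.0905). The other 3 decreases were under 2-fold but in hosts with more counts. *MIR1915HG* had 98.2 and 103 counts in the DMSO libraries against 54 and 65 in the corin libraries (log2 fold change -0.76 ± 0.16, adjusted p = 0.000207). *MIR31HG* had 140 and 145 counts and then 85.1 and 108 (-0.56 ± 0.13, adjusted p = 0.000576). *MIR22HG*, whose exon holds miR-22, had 145 and 140 counts and then 88 and 107 (-0.55 ± 0.13, adjusted p = 0.000626).

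The 10 members tested and not called in 1205Lu-R included 4 abundant hosts. *MIR4435-2HG* had a log2 fold change of 0.01 ± 0.04, and *MIR100HG*, which carries miR-100, let-7a-2, and miR-125b-1 in introns, of 0.09 ± 0.07. *MIRLET7BHG* had 213 and 216 counts in the DMSO libraries against 216 and 260 in the corin libraries (0.15 ± 0.09, adjusted p = 0.157). *MIR23AHG*, whose single exon holds the miR-23a, miR-27a, and miR-24-2 cluster, gave 0.23 ± 0.14 in log2 terms (adjusted p = 0.124). With scaling to library totals alone, *MIRLET7BHG* and *MIR23AHG* passed the threshold (adjusted p = 0.037 and 0.0449).

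6 hosts were called with corin in both lines. *MIR9-1HG* and *MIR9-3HG* rose in both, and *MIR3142HG* fell in both. Both miR-9 hosts encode the mature strands shown above. The remaining miR-9 locus lies in *LINC00461*, looked up after these values were seen, which had 2 to 8.01 counts per library and was not tested. *MIR1915HG* and *MIR31HG* rose in 451Lu-R but fell in 1205Lu-R, and *MIR3681HG* did the reverse. These 3 hosts rose in the line with the lower level with DMSO, a description in which level and change share the DMSO libraries. With corin the lines stayed apart for *MIR31HG* (1.27 and 1.30 CPM in 451Lu-R, 8.95 and 9.71 CPM in 1205Lu-R). For *MIR3681HG* the corin libraries met, at 2.80 and 2.60 CPM in 451Lu-R and 2.73 and 4.68 CPM in 1205Lu-R. For *MIR1915HG* the gap narrowed from 0.46 and 0.93 against 8.87 and 9.71 CPM with DMSO to 3.73 and 2.91 against 5.67 and 5.85 CPM with corin.

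**Figure D3:**
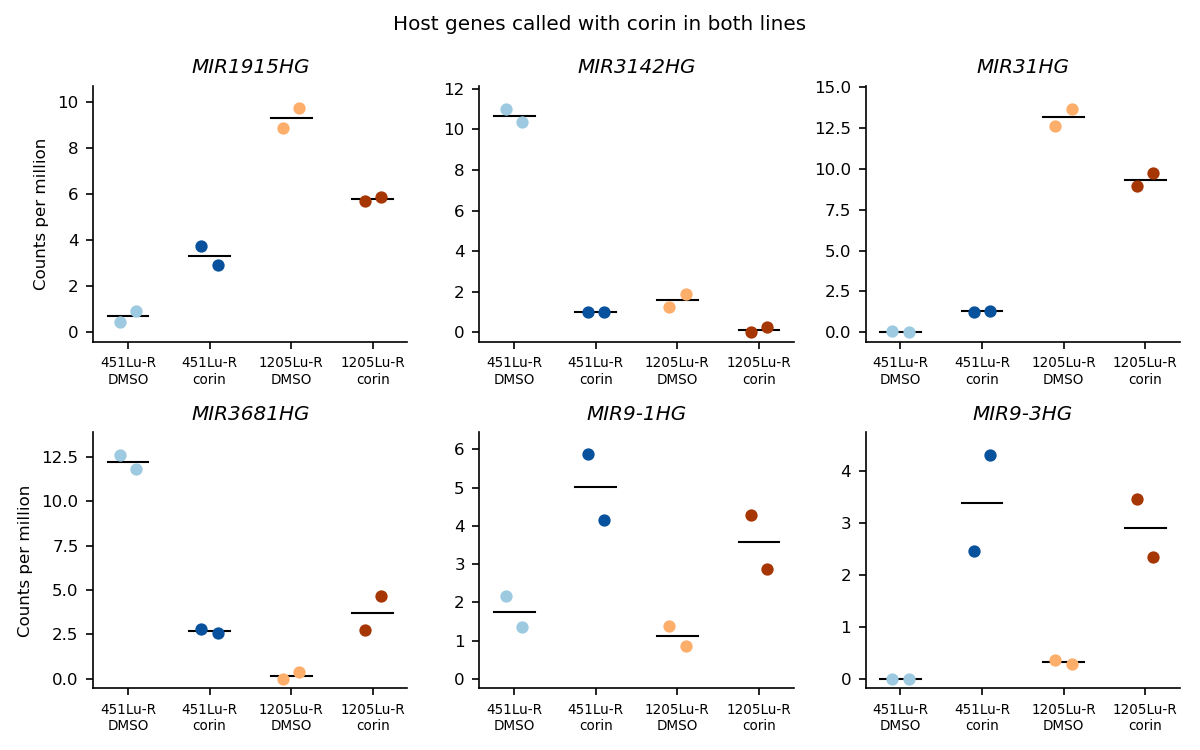
CPM (y axis, from 0) in each library of the 4 groups (x axis) for the 6 host genes called with corin in both lines. Points are libraries and bars are means of 2. *MIR9-1HG* and *MIR9-3HG* are higher and *MIR3142HG* lower with corin in both lines, while *MIR1915HG*, *MIR31HG*, and *MIR3681HG* move in opposite directions.

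The difference between the responses was tested on all 8 libraries with an interaction term, the log2 fold change in 1205Lu-R minus that in 451Lu-R. Of 28 members tested, 9 were called, 3 higher and 6 lower in 1205Lu-R. That is 32.1% of those tested, where 49.7% of all 16062 genes tested were called (22.6% higher and 27.1% lower). At a 4-fold difference or more with an adjusted p under 0.001, 4 members were called, 2 in each direction, beside 5.56% of all genes (2.43% higher and 3.13% lower). The response was higher in 1205Lu-R for *MIR3681HG* (difference 6.23 ± 0.58, adjusted p = 8.61e-09), *MIRLET7BHG* (2.02 ± 0.21, adjusted p = 3.86e-08), and *MIR663AHG* (1.88 ± 0.12, adjusted p = 1.41e-11). For *MIRLET7BHG*, called lower in 451Lu-R, and *MIR663AHG*, called higher in 1205Lu-R, the difference itself thus passed the test.

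The response was lower in 1205Lu-R for *MIR1915HG* (-3.17 ± 0.40, adjusted p = 8.31e-07), *MIR31HG* (-5.11 ± 0.73, adjusted p = 5.04e-06), *MIR600HG* (-1.67 ± 0.44, adjusted p = 0.00329), and *MIR22HG* (-0.97 ± 0.27, adjusted p = 0.00438). *MIR9-3HG* (adjusted p = 0.0157) and *MIR34AHG* (adjusted p = 0.0162) were also called, but both had 0 counts in both 451Lu-R DMSO libraries, so the size of their difference cannot be estimated. For *MIR34AHG* the call rested on the 4.55 counts of 451Lu-R corin replicate 2, without which the adjusted p was 1. *MIR9-3HG* was not called without either 451Lu-R DMSO replicate or without 1205Lu-R DMSO replicate 1 (adjusted p from 0.0543 to 0.0668). *MIR600HG* was not called without 1205Lu-R DMSO replicate 1 (adjusted p = 0.0563), nor *MIR22HG* without 451Lu-R corin replicate 1 (0.0649). For *MIR9-1HG* the difference was -0.03 ± 0.58 and for *MIR3142HG* -0.15 ± 0.59, neither of which passed the test (adjusted p = 1 and 0.886).

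The lines were then compared without drug. Of 22 members tested, 14 were called, 10 higher and 4 lower in 1205Lu-R than in 451Lu-R. That is 63.6% of those tested, where 82.5% of all 14104 genes tested were called (41% higher and 41.5% lower). The median log2 fold change was 0.24 for the members and -0.01 for all genes tested. At 4-fold or more with an adjusted p under 0.001, 9 members were called, 6 higher and 3 lower, beside 20.7% of all genes (10.1% higher and 10.6% lower). The DMSO libraries are those used as controls above.

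The 3 named hosts of the let-7 seed shown above were higher in 1205Lu-R. Other let-7 hosts among the 68, too low to be named by rule and looked up after these values were seen, were not: *MIRLET7A1HG* averaged 0.496 CPM in 451Lu-R and 0.463 CPM in 1205Lu-R, *MIR99AHG* 0.974 and 0.602 CPM, and *MIRLET7IHG* 1.25 and 0.743 CPM. Of these only *MIRLET7IHG* was tested, and it was not called (-0.66 ± 0.46 in log2 terms, adjusted p = 0.191). Outside the 68, the protein coding gene *HUWE1*, which carries let-7f-2 and miR-98, was lower in 1205Lu-R and was also looked up afterwards. With DMSO it averaged 418.4 CPM in 451Lu-R and 309.5 CPM in 1205Lu-R (-0.33 ± 0.03 in log2 terms, adjusted p = 6.1e-11). *MIR4458HG* had 0 counts in both 451Lu-R libraries and 85 and 91 in 1205Lu-R, at least 27.8-fold higher (adjusted p = 5.26e-13). *MIR100HG* had 13 and 8.97 counts in 451Lu-R versus 372 and 358 in 1205Lu-R, or 5.07 ± 0.17 in log2 terms (adjusted p = 3e-19). Some annotated starts of *MIR100HG* lie downstream of its let-7a-2 hairpin, and counts per gene do not tell the starts apart. *MIRLET7BHG* had 106 and 95.7 counts against 213 and 216, or 1.12 ± 0.12 in log2 terms (adjusted p = 6.38e-09). With corin *MIRLET7BHG* stood at 2.15 and 2.75 CPM in 451Lu-R and at 22.7 and 23.4 CPM in 1205Lu-R.

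*MIR31HG* had 1 and 0 counts in 451Lu-R versus 140 and 145 in 1205Lu-R, a ratio of 270 with an interval of 48.1 to 10700 (adjusted p = 3.82e-15). *MIR1915HG* had 5 and 9 counts against 98.2 and 103, or 3.85 ± 0.28 in log2 terms (adjusted p = 4.69e-12). *MIR34AHG* had 0 counts in 451Lu-R versus 12.6 and 13.1 in 1205Lu-R, at least 4.06-fold higher (adjusted p = 7.42e-06). *MIR31HG* and *MIR34AHG* were thus at or near 0 in the line with high *MITF*. *MIR22HG* (2.18 ± 0.18, adjusted p = 5.07e-11), *MIR23AHG* (1.92 ± 0.20, adjusted p = 4.35e-09), and *MIR4435-2HG* (1.15 ± 0.06, adjusted p = 1.6e-15) were expressed in both lines and higher in 1205Lu-R. The *MIR4435-2HG* paralog *CYTOR* had 257 and 264 counts against 840 and 756 (1.64 ± 0.07, adjusted p = 1.09e-16), so reads assigned to the wrong copy would carry the same direction. *MIR210HG* was called with 7.05 and 0 counts against 11.1 and 10 (adjusted p = 0.0342), and its call was lost with DESeq2 (0.19), with library totals (0.0531), and without either 1205Lu-R replicate or 451Lu-R DMSO replicate 2 (0.0777 to 0.423).

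4 hosts were lower in 1205Lu-R. *MIR3681HG* had 137 and 114 counts in 451Lu-R versus 0 and 4 in 1205Lu-R, 66.2-fold lower with an interval of 25.5 to 245 (adjusted p = 3.14e-13). *MIR3142HG* had 120 and 100 counts against 14 and 20, or -2.65 ± 0.23 in log2 terms (adjusted p = 8.14e-11). *MIR924HG*, on chromosome 18, had 28 and 20 counts against 1.10 and 2.47, 16.9-fold lower with an interval of 5.44 to 84.7 (adjusted p = 1.14e-06). *MIR3681HG* and *MIR924HG* were thus the reverse of *MIR31HG*, present in the line with high *MITF* and at 4 counts or fewer in the other. *MIR663AHG* was lower by 0.32 ± 0.10 on the log2 scale (adjusted p = 0.00645), a call lost with DESeq2 (adjusted p = 0.145) and without 451Lu-R DMSO replicate 1 (0.0776).

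**Figure D4:**
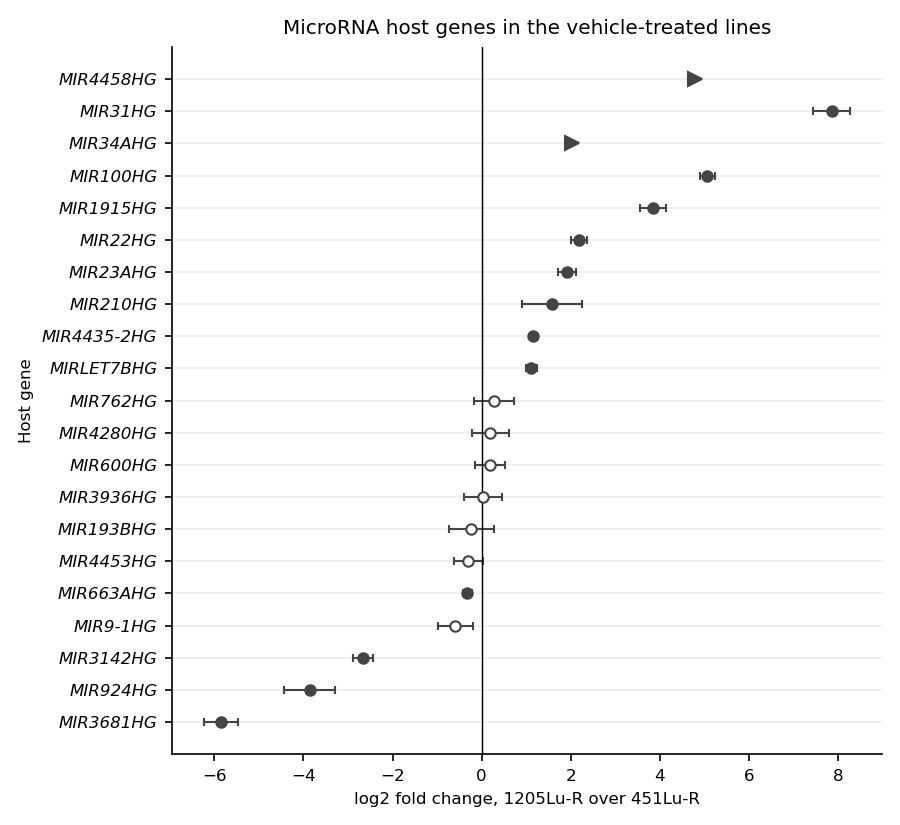
Log2 fold change of the named host genes tested between the DMSO-treated lines, 1205Lu-R over 451Lu-R (x axis). Points are fitted values ± SE, filled where called at an adjusted p under 0.05, and triangles are lower bounds where both 451Lu-R libraries had 0 counts. *MIR31HG*, *MIR100HG*, *MIR4458HG*, and *MIR1915HG* lie far to the right, and *MIR3681HG*, *MIR924HG*, and *MIR3142HG* to the left.

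Genes that process microRNAs or carry out silencing were described from a list of 23, of which 21 were tested. In 451Lu-R 15 were called with corin (4 higher, 11 lower, 71.4% of those tested), and in 1205Lu-R 19 were called (5 higher, 14 lower, 90.5%), beside 79.9% and 78.3% of all genes. Nearly all of these changes were under 2-fold. The median log2 fold change of the list was -0.16 and -0.26, respectively. The only gene past 2-fold was *TARBP2*, the Dicer partner TRBP, which fell from 25.7 ± 0.2 to 10.4 ± 0.6 CPM in 451Lu-R (SD, n = 2; log2 fold change -1.21 ± 0.11, adjusted p = 2.26e-09). In 1205Lu-R it fell from 15.5 ± 1.2 to 6.81 ± 1.2 CPM (-1.27 ± 0.15, adjusted p = 6.62e-08). The Argonaute genes, the *TNRC6* genes, *DROSHA*, *DICER1*, and the *LIN28* genes did not meet the 2-fold rule and were chosen after their values were seen. The paper reports that corin lowered components of the RNA-induced silencing complex in these lines, and its main text does not name them. The Argonaute genes did not move together. *AGO1* was not called in 451Lu-R (-0.02 ± 0.04, adjusted p = 0.623) and fell slightly in 1205Lu-R (-0.16 ± 0.06, adjusted p = 0.0121). *AGO2*, the slicing Argonaute, fell in both lines (-0.68 ± 0.06 and -0.82 ± 0.04), as did *AGO4* (-0.94 ± 0.12 and -0.86 ± 0.19), while *AGO3* rose in both (0.94 ± 0.09 and 0.67 ± 0.11). *DROSHA* (-0.34 ± 0.06 and -0.28 ± 0.05) and *DICER1* (-0.26 ± 0.07 and -0.26 ± 0.09) fell by smaller amounts. The let-7 inhibitors *LIN28A* and *LIN28B* averaged 0.10 CPM or less in every group and were not tested.

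**Figure D5:**
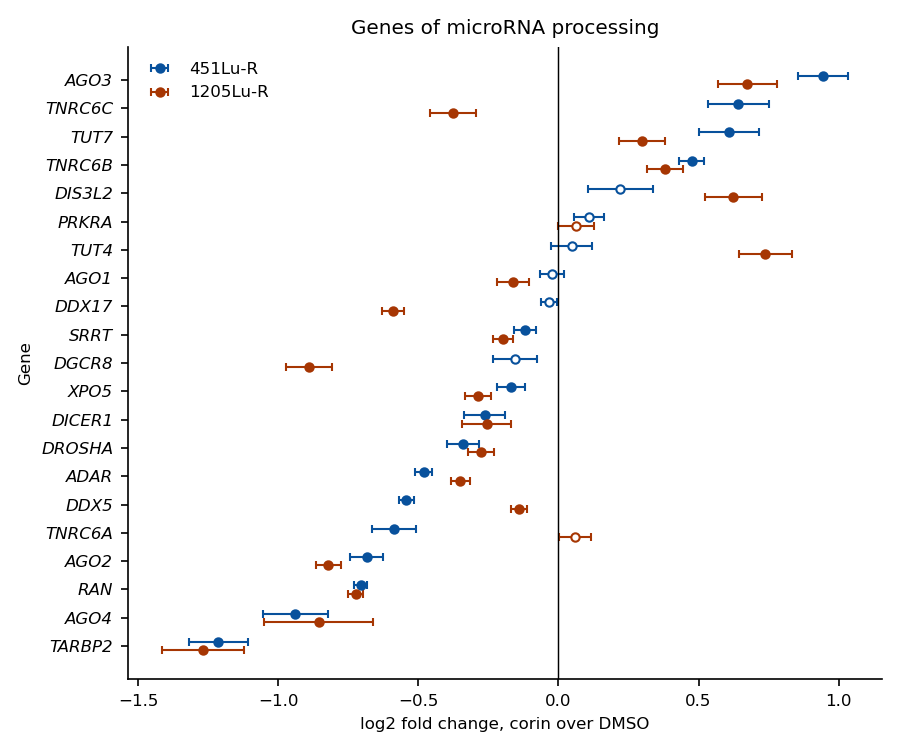
Log2 fold change with corin over DMSO (x axis) of the 21 genes of microRNA processing and silencing that were tested, in 451Lu-R (blue) and 1205Lu-R (brown). Points are fitted values ± SE, filled where called at an adjusted p under 0.05. *TARBP2* is lowest in both lines, and *AGO3* lies above 0 in both.

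MicroRNAs also lie in introns of protein coding genes, whose symbols do not follow the host gene form. Of 32 such genes listed, 29 were tested in 451Lu-R and 25 were called with corin (15 higher, 10 lower), 86.2% beside 79.9% of all genes. In 1205Lu-R 28 were tested and 24 called (10 higher, 14 lower), 85.7% beside 78.3%. The largest change in 451Lu-R was in *SLIT2*, an axon guidance ligand that carries miR-218-1, with log2 fold changes of 6.05 ± 0.15 (451Lu-R) and 1.80 ± 0.06 (1205Lu-R). *MEST*, which carries miR-335, had the largest change in 1205Lu-R, the line in which it was tested (3.23 ± 0.22). *MCM7*, a replication helicase subunit with the miR-106b and miR-25 hairpins, fell in both lines (-2.0 ± 0.04 and -2.14 ± 0.03). *TLN2*, which carries miR-190a, rose in both (2.12 ± 0.08 and 1.06 ± 0.04).

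The 250 bases before and 50 after each annotated start were searched on both strands for 3 motifs. RefSeq gives 32 such promoters for 24 of the 25 named members. The AP-1 letters TGANTCA were in 2 of the 32 promoters (*MIR4280HG* and *MIR4435-2HG*) and in 7.71% of all 35116 promoters in the RefSeq table. The E-box CACCTG, bound by ZEB and SNAIL factors, was in 7 of the 32 promoters, a share close to the 20.6% of all promoters. The 7 belong to *MIR100HG*, *MIR193BHG*, *MIR210HG*, *MIR31HG*, *MIR34AHG*, *MIR4458HG*, and *MIR9-3HG*. That of *MIR100HG* (chr11:122102180-122102479, minus strand) lies downstream of the let-7a-2 hairpin of this host (chr11:122146522-122146593). The E-box CACGTG, bound by MITF and MYC, was in none of the 32 and in 7.26% of all. A promoter of each miR-9 host is shown because both hosts rose in both lines, with any of these motifs in capitals. That of *MIR9-1HG* (chr1:156421720-156422019, minus strand, GRCh38.p14) holds none of them. The *MIR9-3HG* promoter shown here (chr15:89377854-89378153, plus strand) is the one with a motif. It holds CACCTG 23 bases before the start, while the other 3 promoters of this gene hold none of the motifs. It lies downstream of the miR-9-3 hairpin (chr15:89368017-89368106), so a transcript from this start does not include that hairpin. Promoters of this gene upstream of the hairpin (chr15:89361329-89361628 and chr15:89362259-89362558) are not shown. The sequences are:
MIR9-1HG: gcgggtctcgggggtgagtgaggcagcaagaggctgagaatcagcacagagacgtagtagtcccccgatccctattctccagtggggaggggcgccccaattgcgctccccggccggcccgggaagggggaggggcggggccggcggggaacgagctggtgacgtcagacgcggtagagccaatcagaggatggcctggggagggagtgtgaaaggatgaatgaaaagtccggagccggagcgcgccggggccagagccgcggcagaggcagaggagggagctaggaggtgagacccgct
MIR9-3HG: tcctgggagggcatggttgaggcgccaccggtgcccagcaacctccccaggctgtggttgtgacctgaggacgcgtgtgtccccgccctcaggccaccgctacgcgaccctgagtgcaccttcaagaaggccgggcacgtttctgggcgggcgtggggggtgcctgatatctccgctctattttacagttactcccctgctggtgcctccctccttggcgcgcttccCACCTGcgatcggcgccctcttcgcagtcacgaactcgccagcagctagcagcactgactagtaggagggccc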

How the data were processed

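RNA-Seq of polyadenylated RNA was analysed from 8 libraries, 2 per group. The authors used trimmomatic on the paired-end reads and salmon with the GENCODE 32 transcriptome, and deposited estimated counts summed per gene, without normalization. Tool versions and the strand setting are not given in the sources used here. For 8 samples with PLX4032 the authors deposited only their own log2 fold changes and p-values, which were not used.

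Symbols, microRNAs, and exonic lengths came from GENCODE 44, also on GRCh38 (34052 of 34228 genes matched). Estimated counts were rounded and tested on the whole table with edgeR 4.0.16 in R 4.3.3 (filterByExpr on the group, TMM factors from 0.962 to 1.05, glmQLFit and glmQLFTest, 2-sided, Benjamini-Hochberg adjustment), within each line, between the DMSO groups, and as an interaction on 8 libraries. The SE is the absolute log2 fold change divided by the square root of F. CPM are counts over the library total. Between replicates the chi-square per degree of freedom was 1.34 to 1.41. Estimated counts can add spread of their own, so this value alone does not settle whether the 2 files of a group are separate libraries. Ratios of small counts carry exact 95% binomial intervals (SciPy), and a group with 0 counts was set to 3 counts per library. Shared 31-base words were counted on both strands. The fits were tested on simulated data.

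Members with at least 10 counts in both libraries of a group were named. Genes of the microRNA processing list were to be named at a called change of 2-fold or more, and the others named were chosen after their values were seen, and at most 4 of the protein coding hosts were named, by the largest change called at 1 CPM or more. Members and lists were chosen with earlier results of these data known. Alternatives were DESeq2 1.42.0, RLE factors, library totals, no filter, a mean of 1 CPM, a joint fit of all libraries, a replicate block, and leaving out each library.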

Additional observations from a re-analysis of the deposited data

Results flagged for a closer look

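For 9 host genes the response to corin in 1205Lu-R differed from that in 451Lu-R by the interaction term (edgeR, adjusted p under 0.05, log2 scale). The difference was -3.17 for *MIR1915HG*, -0.97 for *MIR22HG*, -5.11 for *MIR31HG*, -6.28 for *MIR34AHG*, 6.23 for *MIR3681HG*, -1.67 for *MIR600HG*, 1.88 for *MIR663AHG*, -5.17 for *MIR9-3HG*, and 2.02 for *MIRLET7BHG*. The sizes for *MIR34AHG* and *MIR9-3HG* rest on a group with 0 counts and those for *MIR31HG* and *MIR3681HG* on groups with 1 and 4 counts in total, so they depend on how the fit treats near-empty groups. No group had 4 or more libraries, so single libraries were not tested as outliers.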

How the results depend on the processing

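Of 1040 values of named hosts under an alternative, 950 kept their direction and side of the threshold, 45 lost a call, 5 gained one, and 40 changed sign, all 40 in hosts that were not called in the comparison. Calls lost because a host was no longer tested, or had no adjusted p, are not among the 45. *MIR31HG* in 451Lu-R thus had 9 alternatives and *MIR34AHG* between the lines 8, where most hosts had 11. At a fold change of 4 and an adjusted p under 0.001 the counts were 6 in 451Lu-R (4 higher, 2 lower), 4 in 1205Lu-R (3 and 1), 4 for the difference (2 lower), and 9 between the lines (6 higher). DESeq2 called 8 in 1205Lu-R (4 higher). Without a filter 7 were lower in 451Lu-R and 16 higher in 1205Lu-R with DMSO. With a mean of 1 CPM 3 were lower in 1205Lu-R. The causes were not tested, except that stricter rules call fewer genes by construction.

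With a library left out, the called counts ran from 10 to 14 in 451Lu-R (higher 6 to 8, lower 3 to 6), from 9 to 11 in 1205Lu-R (higher 5 to 6, lower 4 to 5), from 7 to 9 for the difference (lower 4 to 6), and from 12 to 14 between the lines (higher 8 to 10). Such fits keep 1 library in a group, which is assumed to vary like the others. Without 1205Lu-R corin replicate 2 the higher count was 5.

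Scaling to library totals shifted the median log2 fold change of all genes by 0.21 for the difference and by -0.11 between the lines. It turned *MIR3142HG* (0.060), *MIR4435-2HG* (0.11), and *MIR9-1HG* (0.18) for the difference, *MIR3936HG* between the lines (-0.077), *MIR4435-2HG* in 451Lu-R (-0.027), and *MIR4458HG* (0.066) and *MIR600HG* (0.043) in 1205Lu-R. In 1205Lu-R *MIR4435-2HG* turned to -0.0067 with all libraries in one fit and to -0.039 without a filter, and *MIR4458HG* to 0.0065 with a mean of 1 CPM.

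Signs also turned with a library left out. For the difference the ranges were -3.75 to 0.44 (*MIR137HG*), -0.55 to 1.25 (*MIR193BHG*), -0.50 to 0.82 (*MIR222HG*), -3.80 to 0.72 (*MIR3142HG*), -0.65 to 0.062 (*MIR4280HG*), -0.45 to 0.37 (*MIR762HG*), and -0.46 to 0.35 (*MIR9-1HG*). In 451Lu-R they were -0.29 to 1.52 (*MIR193BHG*) and -0.15 to 0.078 (*MIR23AHG*). In 1205Lu-R they were -0.050 to 0.032 (*MIR4435-2HG*), -0.10 to 0.078 (*MIR4458HG*), and -0.36 to 0.36 (*MIR600HG*). Between the lines they were -0.92 to 0.90 (*MIR193BHG*), -0.070 to 0.11 (*MIR3936HG*), -0.20 to 0.51 (*MIR4280HG*), -0.20 to 0.51 (*MIR600HG*), and -0.052 to 0.76 (*MIR762HG*).

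The labels give both groups replicates 1 and 2. Deviations of libraries with the same number had a correlation of -0.0056 for 451Lu-R, -0.0175 in 1205Lu-R, and 0.0523 between the lines with DMSO. Counting noise in each library can hide a shared part, so these values do not decide whether the numbers pair the libraries. With a replicate block 11 hosts were called in 451Lu-R (7 higher, 4 lower), 12 in 1205Lu-R (7 and 5), 9 for the difference, and 14 between the lines. *MIR4280HG* (adjusted p = 0.0706) and *MIR222HG* (0.0543) lost their calls under the block.

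At these depths 0 counts allow up to 0.254 to 0.315 CPM, so 43 of the 68 hosts were too low to describe gene by gene, and a member with few counts that was not called is not shown to be unchanged.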
